A study of Mus musculus with 27 samples.

Results

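The genes described here are 10 genes that make or use microRNAs: Drosha, Dgcr8, Xpo5, Dicer1, Tarbp2, Ago1, Ago2, Ago3, Ago4 and Tnrc6a. They were taken by name from a table of gene counts with 55367 gene rows, and all 10 had enough counts to be tested in every comparison. The table covers 27 libraries of mouse morulae, the embryo just before cavity formation, in 9 groups of 3 libraries, and each library is a pool of 15 to 20 embryos that the series describes as a biological replicate. The title of the series concerns miR-203 and chromatin in early embryos, and the groups compare changes in histone acetylation. All embryos have the genotype Wildtype (the strain is not given in the sources used here), were cultured in KSOM medium and were harvested at E2.75, where E counts days of embryonic development. From E2.5, 4 groups received Vehicle, SAHA at 500 nM, TSA at 50 nM or A485 at 10 uM. SAHA and TSA are hydroxamate inhibitors of the zinc-dependent histone deacetylases, and A485 inhibits the catalytic activity of the acetyltransferases p300 and CBP. At E0.5, embryos of the other 5 groups were injected with a control siRNA (siControl), with siRNA named for p300 (siP300), Kat6a (siKat6a) or Kat6b (siKat6b), or with siComb, whose composition the labels do not give. The inhibitor groups share the Vehicle libraries and the siRNA groups share the siControl libraries, so comparisons within a family are not independent of each other.

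MicroRNAs are cut from long primary transcripts in the nucleus by the Microprocessor, made of the nuclease Drosha and its RNA-binding partner Dgcr8. Exportin-5 (Xpo5) carries the hairpin to the cytoplasm, where Dicer1 and its partner Tarbp2 cut it into a short duplex. An Argonaute protein keeps a single strand as a guide, and Tnrc6a (GW182) links it to the complexes that remove poly(A) tails and decap the target. Ago2 is the Argonaute with well-established slicing activity in mouse, and it is supplied by the oocyte and expressed by the embryo.

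The mature sequences of the microRNA named in the title of the series are shown, from RefSeq on GRCm38.p6, because its seed gives the letters searched for in the 10 genes. The seed, bases 2 to 8, is in capitals.
mmu-miR-203-3p: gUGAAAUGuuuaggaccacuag
mmu-miR-203-5p: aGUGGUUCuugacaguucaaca
The row of the miR-203 gene held counts in 1 of 27 libraries, at most 2, so the microRNA itself was not measured in this polyadenylated RNA. The letters CATTTCA, complementary to the seed of miR-203-3p, were found on the sense strand of the 3′ UTR of 4 of the 10 genes in GENCODE vM21, against 16.1% of 21037 genes. These were Ago3 with 3 matches, Ago2 with 2, and Dgcr8 and Tnrc6a with 1 each. The UTRs of Ago3 and Ago2 are 12742 and 11064 bases long, against a median of 960 bases over all genes, so they offer more room for a chance match. The 5 matches in the Argonautes are shown with the seed match in capitals, each named by its first base counted from the start of the UTR.
Ago2 site at 4448: gccatcccaacacaCATTTCAg
Ago2 site at 8441: acagtgaatttgtgCATTTCAg
Ago3 site at 1955: tagccaatttactaCATTTCAa
Ago3 site at 7558: gttgaggctcagtgCATTTCAt
Ago3 site at 12428: tatttagactgcagCATTTCAt
A match of letters is a description of the sequence and not a measured site of repression.

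Of the Argonaute genes, 3 lie side by side on the minus strand of chromosome 4 of GRCm38: Ago3 (chr4:126331704-126429556), Ago1 (chr4:126435012-126468583) and Ago4 (chr4:126489541-126533472). Ago3 and Ago1 are 5455 bp apart, and Ago1 and Ago4 are 20957 bp apart. Ago2 lies elsewhere, at chr15:73095844-73184935, on the minus strand. The 250 bases before each start are shown for the 3 neighbours, which did not change together under TSA, and for Tnrc6a (start at chr7:123123885, plus strand), which had the widest range of levels over the groups. They are RefSeq's on GRCm38.p6, written along the gene's own strand, with matches to either of 2 short motifs in capitals, searched on both strands. The first motif is the GC box, with the letters GGGCGG. The other is the CCAAT box, which is named for its own letters.
Ago3, chr4:126429543-126429792: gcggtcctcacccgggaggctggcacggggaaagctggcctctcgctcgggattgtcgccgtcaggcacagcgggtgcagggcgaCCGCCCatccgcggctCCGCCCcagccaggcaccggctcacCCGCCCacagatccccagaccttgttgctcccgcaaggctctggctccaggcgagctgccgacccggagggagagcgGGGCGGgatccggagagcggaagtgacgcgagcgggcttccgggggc
Ago1, chr4:126468584-126468833: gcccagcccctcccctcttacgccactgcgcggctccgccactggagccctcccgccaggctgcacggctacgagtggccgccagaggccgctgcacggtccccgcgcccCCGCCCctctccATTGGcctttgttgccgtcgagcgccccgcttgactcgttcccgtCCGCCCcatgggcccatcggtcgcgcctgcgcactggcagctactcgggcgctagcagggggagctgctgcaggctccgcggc
Ago4, chr4:126533459-126533708: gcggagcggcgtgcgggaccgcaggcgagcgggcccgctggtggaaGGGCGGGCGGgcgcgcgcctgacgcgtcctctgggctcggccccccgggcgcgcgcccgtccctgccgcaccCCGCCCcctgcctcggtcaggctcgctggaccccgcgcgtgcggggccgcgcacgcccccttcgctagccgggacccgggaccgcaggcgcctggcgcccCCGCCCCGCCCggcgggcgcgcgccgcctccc
Tnrc6a, chr7:123123635-123123884: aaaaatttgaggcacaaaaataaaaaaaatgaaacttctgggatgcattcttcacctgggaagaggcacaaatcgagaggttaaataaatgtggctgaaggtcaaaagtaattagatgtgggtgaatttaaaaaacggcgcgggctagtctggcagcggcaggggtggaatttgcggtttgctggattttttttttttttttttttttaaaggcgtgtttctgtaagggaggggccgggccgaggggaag
Promoter sequence was matched for 9 of the 10 genes, all but Ago2. The GC box was found in 7 of the 9, against 32.9% of 27025 genes over the same window, and the CCAAT box in 5 of the 9, against 34.5%. The E-box (CACGTG), the cyclic AMP response element (TGACGTCA), the AP-1 motif (TGACTCA) and a YY1 motif (AAGATGGC) were also searched on both strands and matched in 0 of the 9, against 6.05, 1.62, 4.43 and 1.59% of all genes. All 3 neighbouring Argonaute promoters hold a GC box, and Tnrc6a holds neither box. The Ago4 promoter has 46 CpG dinucleotides and 85.6% G and C, that of Ago3 has 27 and 73.6%, that of Ago1 28 and 74.4%, and that of Tnrc6a 9 and 42.4%. The medians over all promoters are 6 CpG and 52.0% G and C.

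Levels are given as CPM, the count relative to a common library size, scaled by TMM factors over all 27 libraries. Library totals ran from 7557591 to 11988857 counts and TMM factors from 0.883 to 1.29. Of nonzero counts, 84.5% were even, and whether each read of a pair was counted is not given in the sources used here. The markers fixed for the embryo were found, except that Sox2 was at 0 in all 27 libraries, for which the reason was not tested. Cdx2 was at 0 in 4 libraries, among them every A485 library. Of 15 morula and lineage genes tested, 12 fell in SAHA (median log2 difference -1.49), 14 in TSA (-2.62), 13 in A485 (-3.84), 13 in siP300 (-1.53) and 13 in siComb (-1.52). Over all genes, 14, 26.6, 24.2, 15.7 and 17.1% were lower, in the same order. In TSA, Gata3 fell from 345 to 5.86 CPM and Nanog from 182 to 11.7 CPM. The summed level of the list does not show this in SAHA and TSA, since it is carried by Dppa3, a maternal and pluripotency gene at 7364 CPM in Vehicle and 11704 CPM in TSA. The sum was 11868 to 12821 CPM in Vehicle, 10709 to 15431 in SAHA, 9678 to 16134 in TSA and 2086 to 3352 in A485, and 12423 to 17129 CPM in siControl, 4909 to 6871 in siP300 and 3257 to 4616 in siComb. The part of this lineage change in the results on the 10 genes was not tested. The targets of the siRNAs were reduced unevenly. Ep300 was at 16.4, 11.2 and 27.8 CPM in the libraries labelled siP300 and at 22.8, 23.4 and 28.8 CPM in siControl, so these groups overlap (log2 difference -0.43, adjusted p = 0.259). Kat6a was at 13.2, 10.3 and 12.8 CPM in siKat6a against 18.2, 15.7 and 16.3 CPM in siControl, and Kat6b at 66.9, 78.7 and 75.5 CPM in siKat6b against 101, 111 and 114 CPM, without overlap but also without passing the test (adjusted p = 1 and 0.496). In siComb, Kat6a (adjusted p = 0.0220) and Kat6b (adjusted p = 0.00815) fell and Ep300 did not pass the test (adjusted p = 0.722). The endogenous retrovirus MERVL was at 795 to 910 CPM in siP300 replicate 2, siComb replicate 2 and siKat6b replicates 1 and 3, and at 21.8 to 126 CPM in the other 11 siRNA libraries. It was at 2244 to 5104 CPM in SAHA and 9410 to 10605 CPM in TSA, against 13.6, 15.7 and 273 CPM in Vehicle, and its part in the results on those groups was not tested. Results in the siRNA family that change without these 4 libraries are given beside them.

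Compared per kilobase of exon, so that genes of different length can be set side by side, Ago2 had the highest level of the 4 Argonautes in all but 2 of the 27 libraries, TSA 1 and TSA 3, and in TSA 2 it was level with Ago3 (43.4 and 43.3% of the summed Argonaute level). Ago2 was at 12.4 ± 2.33 CPM per kb (SD, n = 3) in Vehicle, Ago3 at 1.66 ± 0.0602, Ago4 at 1.13 ± 0.213 and Ago1 at 0.368 ± 0.175. In siControl the order was the same, with Ago2 at 22.4 ± 3.46 CPM per kb, Ago3 at 2.13 ± 0.126, Ago4 at 1.75 ± 0.369 and Ago1 at 0.829 ± 0.334. Among the processing genes, Tarbp2 was at 14.1 ± 1.73 CPM per kb in Vehicle, Xpo5 at 6.71 ± 0.371, Drosha at 5.56 ± 0.906, Dgcr8 at 1.64 ± 0.206 and Dicer1 at 1.44 ± 0.222. Levels of Tarbp2 differed between the control groups of the 2 families, at 56.7, 63.1 and 72.3 CPM in Vehicle and 32.5, 36.1 and 23.3 CPM in siControl. These groups do not overlap. Nor do they for Dgcr8, which was lower in siControl, or for Ago2, Ago3, Ago4 and Tnrc6a, which were higher there. Ago2 was at 138 to 202 CPM in Vehicle and at 260 to 352 CPM in siControl. The families were not compared by a test, and no share over all genes is given for them. The 2 control groups differ in injection and in the day on which handling began, which cannot be told apart.

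Between the highest and lowest group mean, Tnrc6a varied 7.65-fold (siControl 32.0 CPM, TSA 4.18 CPM), Ago2 7.16-fold (siKat6a 359 CPM, A485 50.2 CPM) and Ago4 6.87-fold (siKat6b 17.0 CPM, TSA 2.47 CPM). Ago1 varied 4.03-fold, Xpo5 3.601-fold, Ago3 3.19-fold, Dicer1 2.69-fold and Tarbp2 2.59-fold. Drosha (2.00-fold) and Dgcr8 (1.94-fold), the Microprocessor pair, had the smallest ranges. Except for Ago1 and Dgcr8, the highest and lowest groups belong to different families, so these ranges also hold the difference in handling. Between the controls alone, Tnrc6a was at 18.3 CPM in Vehicle and 32.0 CPM in siControl, and Ago2 at 174 and 315 CPM. TSA was the lowest group for 5 of the 10 genes: Dicer1, Drosha, Xpo5, Ago4 and Tnrc6a. Most neighbouring groups in these orders overlapped. Of 8 steps per gene, 4 did not overlap for Xpo5 and 3 for Tnrc6a, and none did so for Drosha and Ago1.

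**Figure D1:**
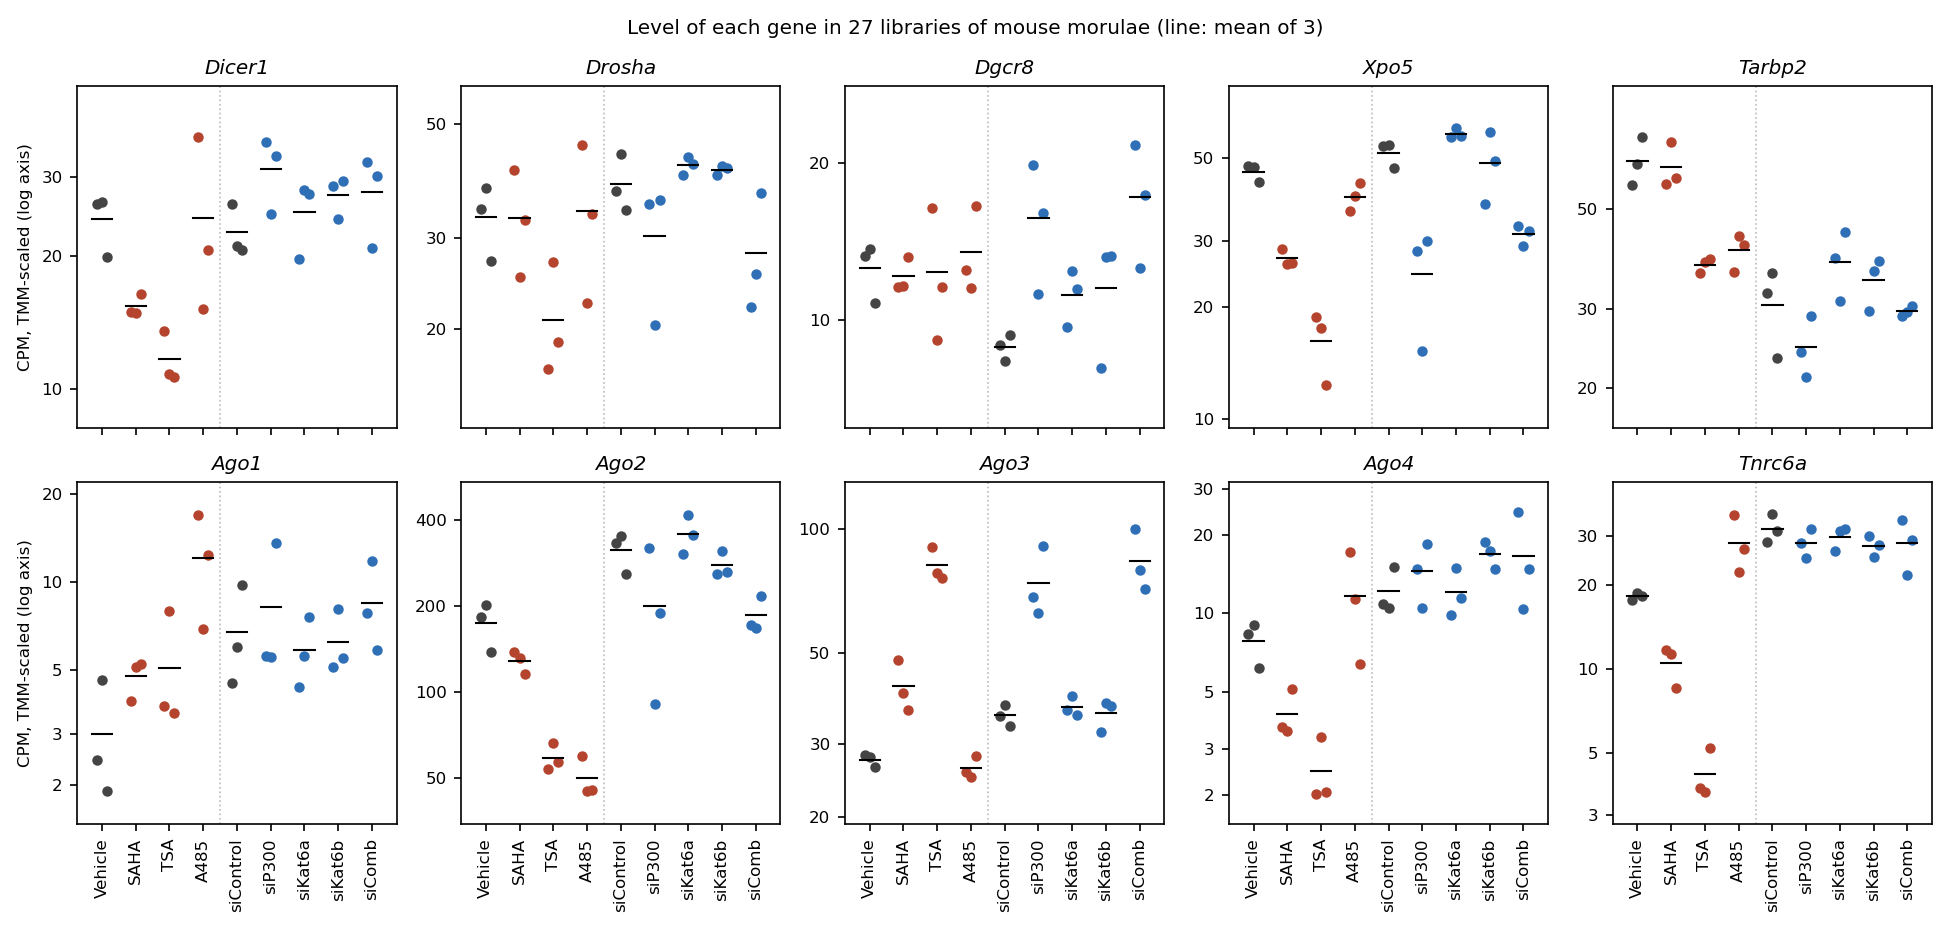
Level of each of the 10 genes in each of the 27 libraries (points, CPM scaled by TMM, log axis), by group, with the group mean as a line; inhibitor groups stand left of the dotted line and siRNA groups right of it. Ago2 is at 45.1 to 66.3 CPM in TSA and A485 and at 115 to 202 CPM in SAHA and Vehicle, while Ago3 is highest in TSA, siP300 and siComb, at 62.3 to 100 CPM.

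Against Vehicle, SAHA changed 3 of the 10 genes (1 rose, 2 fell), where 34.2% of 18297 genes tested passed an adjusted p of 0.05, 20.2% higher and 14% lower (edgeR's quasi-likelihood test with Benjamini-Hochberg adjustment, used throughout). The SAHA and Vehicle libraries did not overlap for 6 of the 10 genes, and for 54.6% of all genes. TSA changed 7 (1 rose, 6 fell), where 58.1% of genes passed, 31.6% higher and 26.6% lower, and 8 did not overlap, against 68.6% of all genes. A485 changed 4 (2 rose, 2 fell), where 45.5% passed, 21.4% higher and 24.2% lower, and 5 did not overlap, against 52.6%. In the siRNA family, siP300 changed 3 (2 rose, 1 fell), where 35.4% of 19180 genes passed, 19.7% higher and 15.7% lower, and 3 did not overlap, against 48.3%. siComb changed 3 (2 rose, 1 fell), where 36.7% passed, 19.6% higher and 17.1% lower, and 4 did not overlap, against 51.5%. No gene of the 10 passed in siKat6a, where 0% of all genes did, or in siKat6b, where 0.0209% did (0.0104% higher and 0.0104% lower). In each comparison the share of the 10 genes that changed was near the share over all genes. The median log2 difference of the 10 genes was -0.84 in TSA, against 0.08 over all genes, and -0.21 in SAHA, against 0.06. It was 0.06 in A485, against -0.06 over all genes, 0.06 in siP300, against 0.12, and 0.13 in siComb, against 0.09. These RNAs come from whole pools, so fewer cells of a type and less RNA per cell cannot be told apart.

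**Figure D2:**
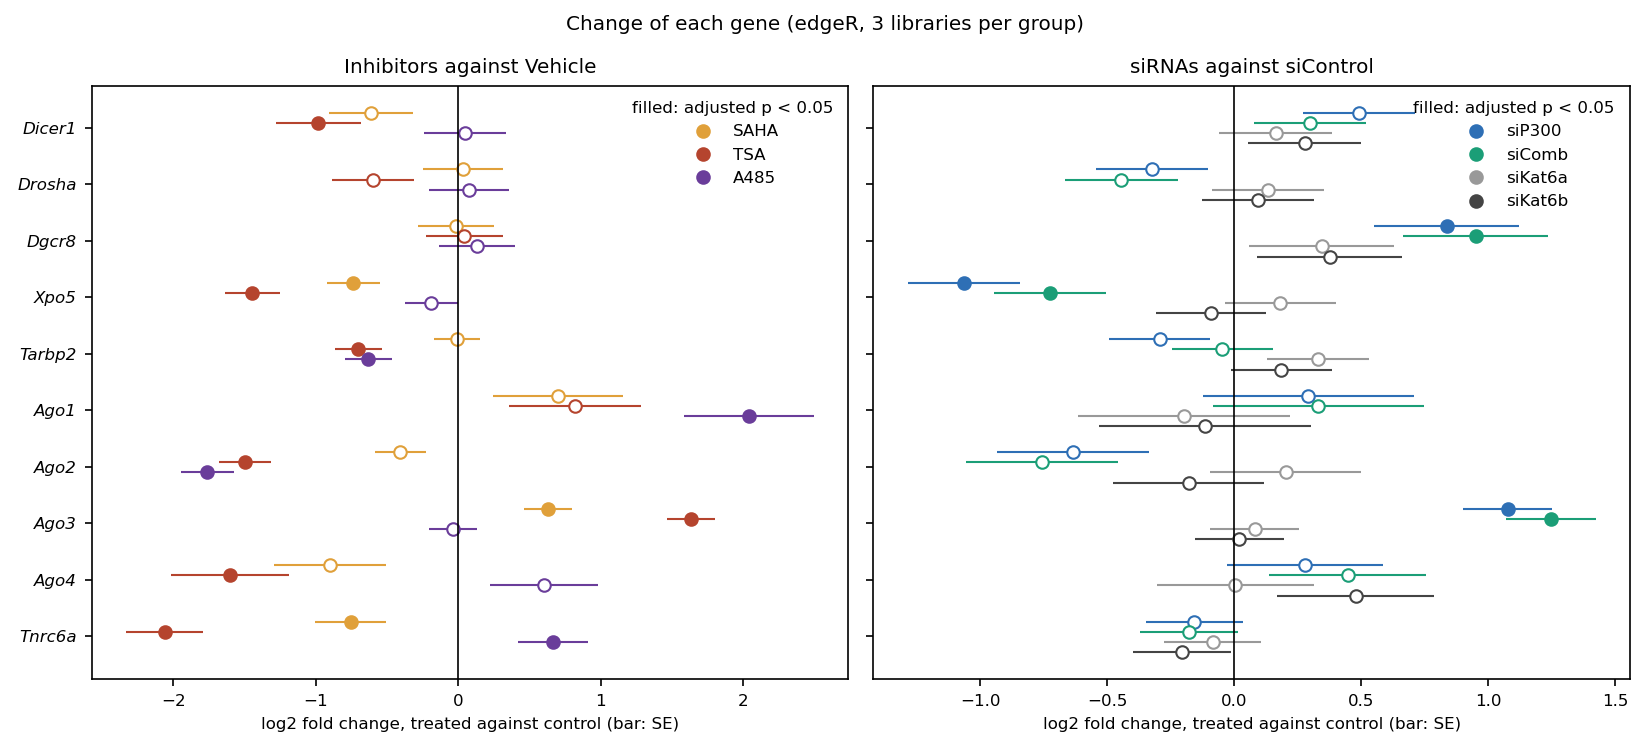
Log2 fold change of each of the 10 genes against Vehicle (left) or siControl (right), with the standard error as a bar; filled points passed an adjusted p of 0.05. In TSA 6 filled points lie left of 0 and Ago3 alone right of it, and in the siRNA panel the filled points are Dgcr8, Xpo5 and Ago3 of siP300 and siComb.

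Of the Microprocessor genes, neither passed the test against Vehicle under any of the 3 inhibitors, and Dgcr8 rose in siP300 and siComb. Drosha (chr15:12824815-12935291, plus strand), the nuclease, was at 34.2, 37.7 and 27.1 CPM in Vehicle and at 16.7, 26.98 and 18.8 CPM in TSA. These groups lie side by side without overlap, and the difference of -0.60 ± 0.28 (SE) on the log2 scale did not pass (adjusted p = 0.0858). Without TSA replicate 2 it was -0.80 and passed (adjusted p = 0.0461). It also passed in a joint fit of all 27 libraries (-0.66, adjusted p = 0.0365) and without a filter (-0.65, adjusted p = 0.0412). In siComb, Drosha was at 22.1, 25.6 and 36.8 CPM against 37.1, 43.7 and 34.0 CPM in siControl, which overlap (adjusted p = 0.126), and without siComb replicate 3 the difference of -0.69 passed (adjusted p = 0.0330). Under SAHA and A485 the log2 differences of Drosha were 0.03 ± 0.28 and 0.07 ± 0.28.

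Dgcr8 (chr16:18253948-18289246, minus strand), which binds the primary transcript, was at 8.98, 8.34 and 9.37 CPM in siControl, the lowest of the 9 groups. It was at 19.8, 11.2 and 16.1 CPM in siP300 and at 21.6, 12.6 and 17.4 CPM in siComb. Every library of both groups lies above every siControl library. Dgcr8 rose by 0.84 ± 0.29 on the log2 scale in siP300 (adjusted p = 0.0311) and by 0.95 ± 0.29 in siComb (adjusted p = 0.0156). Each call depended on single libraries. That of siP300 was lost when any of 5 libraries was left out (siControl 1, 2 or 3, siP300 1 or 3, adjusted p 0.0633 to 0.132), and that of siComb without siComb 1, siControl 1 or siControl 2 (adjusted p 0.0502 to 0.0817). Set against siKat6a and siKat6b, Dgcr8 in siP300 did not pass (0.49 ± 0.28, adjusted p = 0.184, and 0.46 ± 0.28, adjusted p = 0.244). Dgcr8 overlaps the gene Trmt2a, which lies on the opposite strand, and the strand setting of the counting is not given in the sources used here, so reads of the overlap cannot be told apart. Under the inhibitors Dgcr8 ran from 9.18 to 16.5 CPM against 10.8 to 13.7 CPM in Vehicle, and its log2 differences were -0.01, 0.04 and 0.13 for SAHA, TSA and A485.

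Xpo5, the export receptor of the hairpin (chr17:46202782-46243598, plus strand), fell in 4 of the 5 treated groups with widespread change. It was at 47.7, 47.3 and 43.1 CPM in Vehicle, at 28.6, 26.02 and 26.2 CPM in SAHA and at 18.7, 17.5 and 12.3 CPM in TSA. No library of either deacetylase inhibitor reached the lowest Vehicle library. Xpo5 fell by 0.73 on the log2 scale in SAHA (SE 0.19, adjusted p = 0.00795) and by 1.44 in TSA (SE 0.19, adjusted p = 2.4e-05). In A485 it was at 36.1, 39.5 and 42.8 CPM, just below the Vehicle libraries without overlap, and did not pass the test (-0.19 ± 0.19, adjusted p = 0.429).

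In the siRNA family, Xpo5 was at 53.9, 54.2 and 47.2 CPM in siControl, at 28.2, 15.2 and 30.1 CPM in siP300 and at 32.9, 29.1 and 31.9 CPM in siComb. Both treated groups lie wholly below siControl. Xpo5 fell by 1.06 on the log2 scale in siP300 (SE 0.22, adjusted p = 0.00162) and by 0.73 in siComb (SE 0.22, adjusted p = 0.0162). The siComb call was lost without siComb 2, siControl 1 or siControl 2 (adjusted p 0.0511 to 0.0529) and when scaled by library size alone (-0.46, adjusted p = 0.149). That scaling moves the median log2 difference of all genes from 0.09 to 0.36 in siComb and from 0.12 to 0.45 in siP300, and with it the share of called genes that are higher, from 53.5% to 70.4% and from 55.8% to 77.0%. In siKat6a Xpo5 was at 57.0, 60.2 and 57.6 CPM, all above siControl, with a log2 difference of 0.18 ± 0.22.

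Dicer1 (chr12:104687742-104751952, minus strand), which cuts the hairpin, passed the test against a control in TSA, where it fell, and its partner Tarbp2 fell in TSA and in A485. Dicer1 was at 26.1, 26.4 and 19.8 CPM in Vehicle, at 14.9, 14.9 and 16.4 CPM in SAHA and at 13.5, 10.8 and 10.7 CPM in TSA. The 3 groups form separate ranges, with TSA the lowest. Dicer1 fell by 0.98 on the log2 scale in TSA (SE 0.30, adjusted p = 0.0120) and did not pass in SAHA (-0.61 ± 0.29, adjusted p = 0.124). A fit of just SAHA and Vehicle gave -0.58 and passed (adjusted p = 0.0314). The A485 libraries were spread, at 37.1, 15.2 and 20.6 CPM, on both sides of Vehicle (0.05 ± 0.29). In siP300 Dicer1 was at 36.0, 24.8 and 33.4 CPM against 26.1, 21.1 and 20.6 CPM in siControl (0.49 ± 0.22, adjusted p = 0.0938). Without siP300 replicate 2 the difference was 0.65 and passed (adjusted p = 0.0375), as it did without all 4 libraries high in MERVL (0.61, adjusted p = 0.0383) and with library size alone (0.82, adjusted p = 0.0167).

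Tarbp2 (chr15:102518192-102523676, plus strand), a double-stranded RNA-binding protein, was at 36.0, 38.1 and 38.8 CPM in TSA and at 36.2, 43.7 and 41.5 CPM in A485, below every Vehicle library. It fell by 0.70 on the log2 scale in TSA (SE 0.16, adjusted p = 0.00231) and by 0.63 in A485 (SE 0.16, adjusted p = 0.00608). In SAHA it was at 56.9, 70.4 and 58.6 CPM, inside the Vehicle range (-0.01 ± 0.16). No siRNA group differed from siControl by the test, with log2 differences of -0.29 to 0.33.

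Ago2, the slicing Argonaute, fell in TSA and A485. It was at 183, 202 and 138 CPM in Vehicle, at 54.0, 66.3 and 56.8 CPM in TSA and at 60.0, 45.1 and 45.5 CPM in A485. The ranges of TSA and A485 overlap each other and lie far below Vehicle. Ago2 fell by 1.497 on the log2 scale in TSA (SE 0.18, adjusted p = 1.1e-05, a 2.82-fold lower level) and by 1.76 in A485 (SE 0.19, adjusted p = 4.1e-06, 3.39-fold lower). In SAHA it was at 138, 131 and 115 CPM, just under the lowest Vehicle library, and did not pass (-0.41 ± 0.18, adjusted p = 0.0963).

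In the siRNA family Ago2 was at 333, 352 and 260 CPM in siControl, at 321, 91.2 and 189 CPM in siP300 and at 172, 168 and 218 CPM in siComb. The siComb libraries lie below siControl, while siP300 replicate 1 lies within it. Neither difference passed, with -0.63 ± 0.30 in siP300 (adjusted p = 0.107) and -0.76 ± 0.30 in siComb (adjusted p = 0.0560). Both calls turned on the libraries and the setting. Without siP300 replicate 1 the siP300 difference was -1.18 and passed (adjusted p = 0.00257), and without siP300 replicate 2 it was -0.28 (adjusted p = 0.349). It was -0.31 without the 4 libraries high in MERVL (adjusted p = 0.300) and also with library size alone (adjusted p = 0.446). Without the 4 libraries high in MERVL the siComb difference was -0.69 and passed (adjusted p = 0.0244), as it did with DESeq2 (adjusted p = 0.0346). It passed too in a joint fit of all 27 libraries (adjusted p = 0.0299), in a fit of just siComb and siControl (0.00343) and without a filter (0.00224). Without a filter the siP300 difference passed as well (-0.63, adjusted p = 0.0101). Ago2 overlaps Chrac1 on the opposite strand, so the limit on strand given for Dgcr8 applies to it too, as it does to Xpo5 and Ago4, which overlap the gene models Gm22474 and Gm12935. Some genes also overlap others on their own strand, which a strand setting would not separate. These are Dgcr8 (Gm49776, Mir1306 and Gm24572), Drosha (Gm47288), Xpo5 (Mir693), Ago4 (Gm12934) and Tnrc6a (Gm45846).

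Ago3, which also loads microRNAs, moved opposite to Ago2 in TSA. It was at 28.2, 27.8 and 26.4 CPM in Vehicle, at 48.1, 40.0 and 36.3 CPM in SAHA and at 90.6, 78.2 and 75.8 CPM in TSA. The 3 groups are separate, with Vehicle lowest and TSA highest. Ago3 rose by 0.63 ± 0.17 on the log2 scale in SAHA (adjusted p = 0.00993) and by 1.63 ± 0.17 in TSA (adjusted p = 2.5e-06, 3.10-fold). The SAHA call was lost without SAHA replicate 1 (0.51, adjusted p = 0.0573). A485, at 25.6, 25.0 and 28.0 CPM, overlapped Vehicle (-0.03 ± 0.17, adjusted p = 0.893).

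Ago3 also rose in the siRNA groups. It was at 35.2, 37.3 and 33.2 CPM in siControl, at 68.1, 62.3 and 90.6 CPM in siP300 and at 100, 79.5 and 71.5 CPM in siComb. All 6 treated libraries exceed 60 CPM and none of siControl, siKat6a or siKat6b exceeds 40 CPM. Ago3 rose by 1.08 ± 0.18 on the log2 scale in siP300 (adjusted p = 0.000237) and by 1.25 ± 0.18 in siComb (adjusted p = 5.5e-05), and both calls held under all 15 alternatives tried. In siKat6a and siKat6b the log2 differences were 0.08 ± 0.17 and 0.02 ± 0.17.

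Of the neighbours of Ago3, Ago1 passed the test in no group where Ago3 rose, and Ago4 passed in TSA alone, where it fell. The log2 differences of Ago1 there had the sign of Ago3, at 0.70 in SAHA, 0.82 in TSA, 0.29 in siP300 and 0.33 in siComb. The genes were not compared with each other by a test. Ago1 was at 2.45, 4.61 and 1.92 CPM in Vehicle and at 16.9, 6.89 and 12.3 CPM in A485, where every library exceeds Vehicle. It rose by 2.04 ± 0.46 on the log2 scale in A485 (adjusted p = 0.00219), from 18 to 46 counts per library to 70 to 201. In SAHA and TSA it was at 3.55 to 7.93 CPM and did not pass (0.70 ± 0.46 and 0.82 ± 0.46). Ago4 was at 8.36, 9.01 and 6.19 CPM in Vehicle and at 2.02, 3.34 and 2.05 CPM in TSA, without overlap. It fell by 1.60 on the log2 scale in TSA (SE 0.41, adjusted p = 0.00423). In SAHA it was at 3.66, 3.52 and 5.12 CPM, also below Vehicle, and did not pass (-0.90 ± 0.39, adjusted p = 0.0902). It did pass in a joint fit of all 27 libraries (-0.94, adjusted p = 0.0481) and in a fit of just SAHA and Vehicle (-0.87, adjusted p = 0.0418). In A485 it was spread over 17.2, 11.3 and 6.36 CPM (0.60 ± 0.38, adjusted p = 0.209). Thus in TSA Ago3 rose, Ago4 fell and Ago1 between them did not pass, while in A485 Ago1 alone of the 3 passed. In the siRNA groups neither Ago1 nor Ago4 passed, with log2 differences of -0.20 to 0.33 and 0.00 to 0.48.

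The make-up of the Argonaute transcripts was compared as a description, since its test could not pass the threshold. Of the summed level of the 4 genes per kilobase, Ago2 made up 80.2, 80.2 and 78.4% in the Vehicle libraries and Ago3 10.5, 9.37 and 12.6%. In TSA Ago2 made up 38.2, 43.4 and 43.3% and Ago3 54.3, 43.3 and 48.9%. The ratio of Ago3 to Ago2 was 1.18 ± 0.216 (SD, n = 3) in TSA against 0.136 ± 0.0228 in Vehicle. In A485 the Ago2 share was as low, at 41.2, 44.6 and 44.0%, but the remainder was divided among Ago4 (19.6 ± 6.28%), Ago3 (19.6 ± 4.20%) and Ago1 (17.5 ± 4.95%). In SAHA Ago2 made up 71.5, 72.5 and 69.7%, below each Vehicle library. In siControl the Ago2 share was 84.8, 84.8 and 77.5%, against 76.7, 52.2 and 57.8% in siP300 and 53.8, 60.8 and 68.5% in siComb, where Ago3 took 22.5 ± 8.25% and 23.3 ± 3.83%. The shares in siKat6a (84.5 ± 0.590%) and siKat6b (78.7 ± 0.757%) overlap siControl. For SAHA, TSA, A485, siP300 and siComb the Ago2 share and the ratio of Ago3 to Ago2 did not overlap the control (two-sided exact permutation p = 0.1 for each, the smallest that this test can give with 3 against 3 libraries, so it cannot pass 0.05). The summed level itself was lower without overlap in TSA (10.1 ± 0.773 CPM per kb), A485 (8.32 ± 1.79) and siComb (21.8 ± 1.74), against 15.6 ± 2.74 in Vehicle and 27.1 ± 2.93 in siControl.

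**Figure D3:**
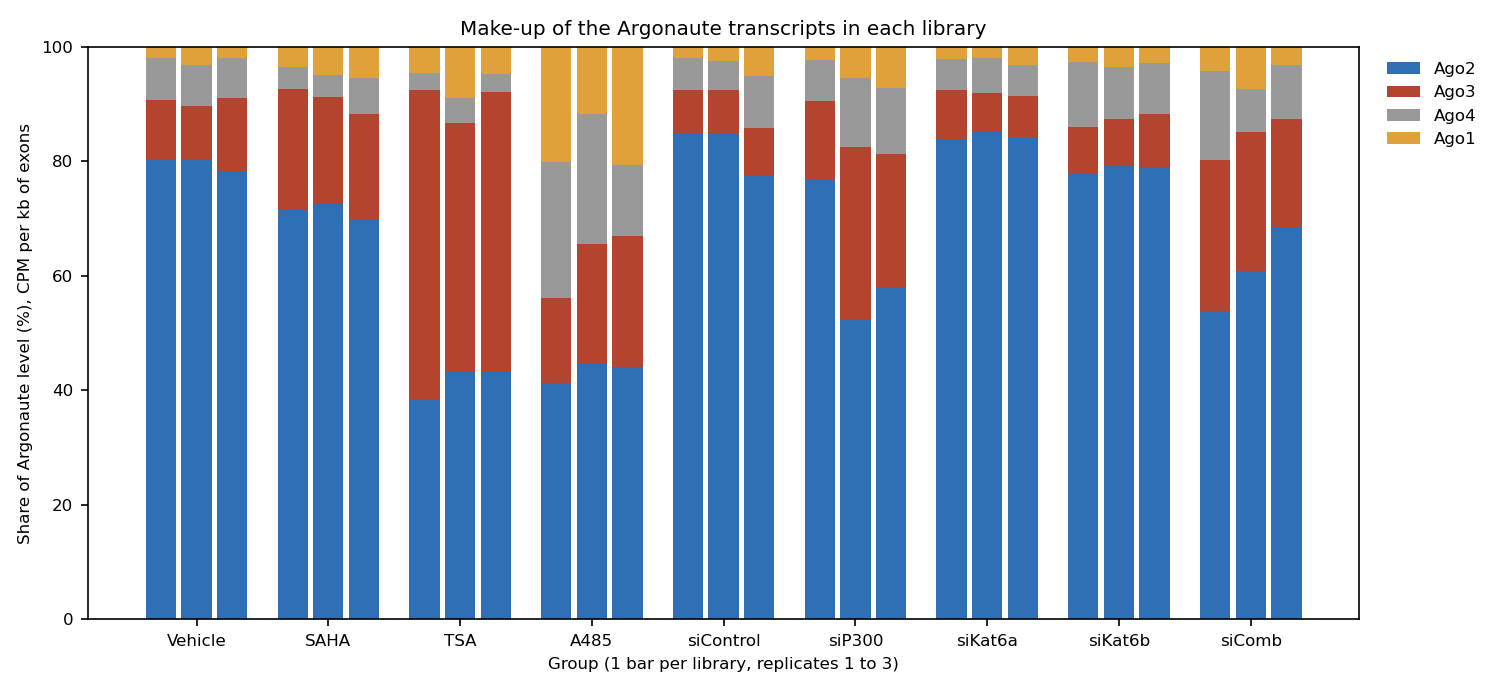
Share of each Argonaute gene in the summed Argonaute level (CPM per kilobase of exon, stacked to 100%), with 1 bar per library in the order of replicates. The Ago2 segment covers 38.2 to 44.6% in TSA and A485 and 78.4 to 80.2% in Vehicle, with Ago3 filling most of the difference in TSA and Ago1, Ago3 and Ago4 sharing it in A485.

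Tnrc6a, the GW182 protein that recruits the deadenylases, fell under both deacetylase inhibitors and rose under the acetyltransferase inhibitor. The Vehicle libraries gave 17.7, 18.8 and 18.4 CPM and the SAHA libraries 11.7, 11.3 and 8.57 CPM. TSA gave 3.75, 3.62 and 5.19 CPM, and A485 gave 35.7, 22.2 and 27.1 CPM. The 4 groups form separate ranges, with TSA lowest and A485 highest. In TSA Tnrc6a fell by 2.06 on the log2 scale (SE 0.27, adjusted p = 2e-05, 4.17-fold lower). The other changes were smaller. SAHA gave -0.75 ± 0.25 (adjusted p = 0.0316), lost whichever of the 6 libraries was left out (adjusted p 0.0532 to 0.131), and A485 gave 0.67 ± 0.25 (adjusted p = 0.0385). The A485 call was lost without A485 1, A485 3 or any Vehicle library (adjusted p 0.0627 to 0.109). In the siRNA groups Tnrc6a ran from 21.7 to 36.2 CPM and none of the 4 differences passed (-0.21 to -0.09 on the log2 scale).

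A485 was also compared directly with the deacetylase inhibitors, for the difference in RNA between the drug groups. Acetylation itself was not measured in these files. Against SAHA, 7 of the 10 genes differed (4 higher and 3 lower in A485), where 54.3% of all genes did (22.5% higher, 31.9% lower), and 7 did not overlap, against 60.3% of all genes. Against TSA, 6 differed (5 higher, 1 lower), where 63.5% of all genes did (27.4% higher, 36.1% lower), and 5 did not overlap, against 66.1%. Tnrc6a was higher in A485 than in TSA by 2.73 ± 0.27 on the log2 scale (adjusted p = 1.2e-06) and than in SAHA by 1.42 ± 0.25 (adjusted p = 0.000296). Ago4 was higher by 2.20 ± 0.41 than in TSA (adjusted p = 0.000346) and by 1.502 ± 0.39 than in SAHA (adjusted p = 0.00496). Ago3 was lower in A485 than in TSA (-1.67 ± 0.17, adjusted p = 1.5e-06) and than in SAHA (-0.67 ± 0.17, adjusted p = 0.00401). Ago2 was lower in A485 than in SAHA (-1.36 ± 0.18, adjusted p = 3e-05), and against TSA the difference of -0.26 ± 0.18 did not pass (adjusted p = 0.218). Xpo5 was higher in A485 than in TSA (1.25 ± 0.19, adjusted p = 6.5e-05) and than in SAHA (0.55 ± 0.19, adjusted p = 0.0239). The latter call was lost without A485 3, SAHA 2 or SAHA 3 (adjusted p 0.0721 to 0.0760).

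Of the remaining genes, Dicer1 was higher in A485 than in TSA (1.03 ± 0.30, adjusted p = 0.00812), and against SAHA the difference of 0.66 ± 0.29 did not pass (adjusted p = 0.0725) but passed without A485 2 (0.91, adjusted p = 0.0154). The difference from SAHA also passed in a joint fit of all 27 libraries (0.66, adjusted p = 0.0386). Tarbp2 was lower in A485 than in SAHA (-0.62 ± 0.16, adjusted p = 0.00533) and overlapped TSA (0.07 ± 0.16). Ago1 was higher than in SAHA (1.34 ± 0.44, adjusted p = 0.0191) and TSA (1.22 ± 0.44, adjusted p = 0.0267). The Ago1 calls were lost without A485 1 or SAHA 1 for SAHA (adjusted p 0.0711 to 0.0713) and without A485 1, A485 3, TSA 1 or TSA 3 for TSA (adjusted p 0.0505 to 0.0954). Drosha did not pass against TSA (0.67 ± 0.28, adjusted p = 0.0516) and did so without A485 2 (0.91, adjusted p = 0.0122) or TSA 2 (0.86, adjusted p = 0.0318). It also passed in a joint fit of all 27 libraries (adjusted p = 0.0249), with library size alone (0.0241) and without a filter (0.00942). Dgcr8 passed in neither. SAHA and TSA, 2 hydroxamates, were given at different doses and are set side by side without a test. Of the 10 genes, the log2 difference from Vehicle was -0.75 in SAHA and -2.06 in TSA for Tnrc6a, -0.73 and -1.44 for Xpo5, -0.41 and -1.497 for Ago2, and 0.63 and 1.63 for Ago3.

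Among the siRNA groups, siP300 was also compared with siKat6a and siKat6b. Against siKat6a, 4 of the 10 genes differed (1 higher, 3 lower in siP300), where 34.9% of all genes did (19.3% higher, 15.5% lower), and 4 did not overlap, against 47.4% of all genes. Against siKat6b 2 differed (1 higher, 1 lower), where 27% did (14.4% higher, 12.6% lower), and 4 did not overlap, against 39.2%. Ago3 was higher in siP300 than in siKat6a (0.996 ± 0.17, adjusted p = 0.000439) and siKat6b (1.06 ± 0.18, adjusted p = 0.000397). Xpo5 was lower than in siKat6a (-1.25 ± 0.22, adjusted p = 0.000487) and siKat6b (-0.97 ± 0.22, adjusted p = 0.00401). The siKat6b call was lost in a fit of just those groups (-0.94, adjusted p = 0.0574). Tarbp2 (-0.62 ± 0.20, adjusted p = 0.0235) and Ago2 (-0.84 ± 0.30, adjusted p = 0.0384) were lower than in siKat6a. Both of these calls were lost without the 4 libraries high in MERVL (adjusted p = 0.0838 and 0.0930) and with library size alone (adjusted p = 0.284 and 0.172). That of Tarbp2 was also lost without siKat6a 1, siKat6a 3 or siP300 2 (adjusted p 0.0633 to 0.102), and that of Ago2 without any siKat6a library, siP300 2 or siP300 3 (adjusted p 0.0506 to 0.128). Against siKat6b, Ago2 did not pass (-0.46 ± 0.30, adjusted p = 0.276) but did so without siP300 1 (-1.004, adjusted p = 0.00893). Between siComb and siP300 none of the 10 genes passed, with differences of -0.19 to 0.34 on the log2 scale, where 0.798% of all genes did (0.516% higher, 0.282% lower). Tarbp2 alone of the 10 did not overlap, against 15.8% of all genes. None of the 10 had an unadjusted p under 0.05 there, in edgeR or in DESeq2.

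In siKat6a and siKat6b the 10 genes stayed near siControl. Their log2 differences ran from -0.20 (Ago1) to 0.34 (Dgcr8) in siKat6a and from -0.21 (Tnrc6a) to 0.48 (Ago4) in siKat6b, with standard errors of 0.17 to 0.42. None of the 10 had an unadjusted p under 0.05 in edgeR or DESeq2, where 410 and 2002 of 19180 genes did in edgeR and 464 and 2136 in DESeq2. Over all genes edgeR called 0 in siKat6a and DESeq2 1, and 4 and 237 in siKat6b. In siKat6a, 2 of the 10 genes did not overlap siControl (Dgcr8 and Xpo5), where 9.93% of all genes did not, and in siKat6b 0, where 17% did not.

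A further 74 genes of the pathway were listed: 14 cofactors of the Microprocessor, 14 genes of export, dicing and precursor control, 16 partners of Argonaute loading, 27 effectors of silencing and 3 PIWI-clade Argonautes. In A485, 24 rose and 15 fell of 72 tested (54.2%). In TSA 9 rose and 32 fell (56.9%), and in SAHA 4 rose and 13 fell (23.6%). In siP300 11 rose and 16 fell of 74 (36.5%), in siComb 15 rose and 20 fell (47.3%), and in siKat6a and siKat6b none passed. The shares over all genes were 45.5, 58.1, 34.2, 35.4 and 36.7% in the same order.

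Prkra (PACT), the other double-stranded RNA-binding partner of Dicer1, rose in all 5 of these groups while Tarbp2 did so in none. Its mean was 6.09 ± 3.17 CPM for Vehicle, 14.03 ± 0.988 with SAHA, 22.4 ± 5.35 with TSA and 46.0 ± 9.12 with A485 (SD, n = 3), and 3.79 ± 0.633 CPM in siControl, 24.9 ± 1.24 in siP300 and 31.4 ± 12.05 in siComb (adjusted p from 4.7e-06 to 0.0100). Of the paralogs of Tnrc6a, Tnrc6b rose where Tnrc6a fell, from 23.2 ± 5.13 CPM in Vehicle to 52.2 ± 2.37 in SAHA (adjusted p = 0.00102) and 64.3 ± 9.45 in TSA (adjusted p = 5.8e-05), and it rose to 48.7 ± 13.6 in A485 (adjusted p = 0.00114). Tnrc6c rose from 7.98 ± 0.318 CPM in siControl to 25.9 ± 5.07 in siP300 (adjusted p = 0.00039) and 28.6 ± 6.49 in siComb (adjusted p = 0.000174). How reads are shared among the Tnrc6 paralogs, or among the 4 Argonautes, in the authors' counting is not given in the sources used here.

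The effectors of silencing had 14 genes higher and 1 lower of 27 in A485, where 21.4% of all genes were higher and 24.2% lower, with a median log2 difference of 0.48 against -0.06 over all genes. Among them were subunits of the CCR4-NOT deadenylase, Cnot7 (92.2 to 220 CPM, 1.28 on the log2 scale) and Cnot9 (104 to 207 CPM, 1.02), and Lsm14a, a P-body protein (43.2 to 120 CPM, 1.51), while the cap-binding Eif4e2 fell (330 to 171 CPM, -0.91). The same list had 3 higher and 11 lower in TSA, where 31.6% of all genes were higher and 26.6% lower. There the 5′ exonuclease Xrn1 rose from 39.7 ± 1.17 to 150 ± 16.1 CPM (adjusted p = 2e-06). Among precursor control genes, Lin28a, which binds the let-7 precursor, fell from 19.1 ± 3.03 CPM in Vehicle to 3.05 ± 1.39 in TSA (adjusted p = 0.000561) and 1.41 ± 1.13 in A485 (adjusted p = 6.4e-05). Trim71, a target of let-7, fell from 18.6 ± 2.33 CPM to 5.82 ± 2.45 in SAHA (adjusted p = 0.0128) and 4.27 ± 2.72 in TSA (adjusted p = 0.00197), and Piwil2, a PIWI-clade Argonaute, from 24.3 ± 3.61 to 7.10 ± 1.70 (adjusted p = 0.000357) and 4.97 ± 1.39 CPM (adjusted p = 2e-05).

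Of the partners of Argonaute loading, Stip1, an HSP90 cochaperone, fell from 1064 ± 179 to 203 ± 41.2 CPM in A485 (adjusted p = 3.6e-07), where Zswim8, the ligase that degrades Argonaute on certain targets, rose from 2.32 ± 0.532 to 18.4 ± 9.37 CPM (adjusted p = 0.000120). The chaperone Hsp90aa1 fell from 8597 ± 478 CPM in siControl to 3448 ± 271 in siP300 (adjusted p = 6e-05). Of 14 Microprocessor cofactors, 5 fell and none rose in siP300, where 15.7% of all genes fell and 19.7% rose, among them Erh (765 to 357 CPM, -1.08 on the log2 scale), the small protein that binds Dgcr8. In siComb 6 fell, Erh among them (-0.74), and 1 rose, where 17.1% of all genes fell and 19.6% rose.

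Other pathway genes with large changes were found in each group. The RNA helicase Mov10 fell in SAHA from 23.0 to 8.36 CPM (-1.43 on the log2 scale, adjusted p = 0.00266). In A485 the helicase Ddx17, a Microprocessor cofactor, rose from 51.4 to 144 CPM (1.53, adjusted p = 4.3e-05), and Rcc1, the exchange factor that charges Ran for nuclear export, fell from 35.6 to 4.74 CPM (-2.86, adjusted p = 1.6e-05). In siP300 the Argonaute-binding LIM protein Limd1 rose from 9.89 to 23.0 CPM (1.23, adjusted p = 0.00454), while the cochaperone Fkbp4 fell from 228 to 101 CPM (-1.16, adjusted p = 0.00247). In siComb the RNA-binding protein Fmr1 rose from 50.1 to 110 CPM (1.13, adjusted p = 0.000414). The decapping enzyme Dcp2 fell there from 24.8 to 10.3 CPM (-1.27, adjusted p = 0.000126), and the chaperone Hsp90ab1 from 3596 to 1788 CPM (-1.01, adjusted p = 0.00530).

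**Figure D4:**
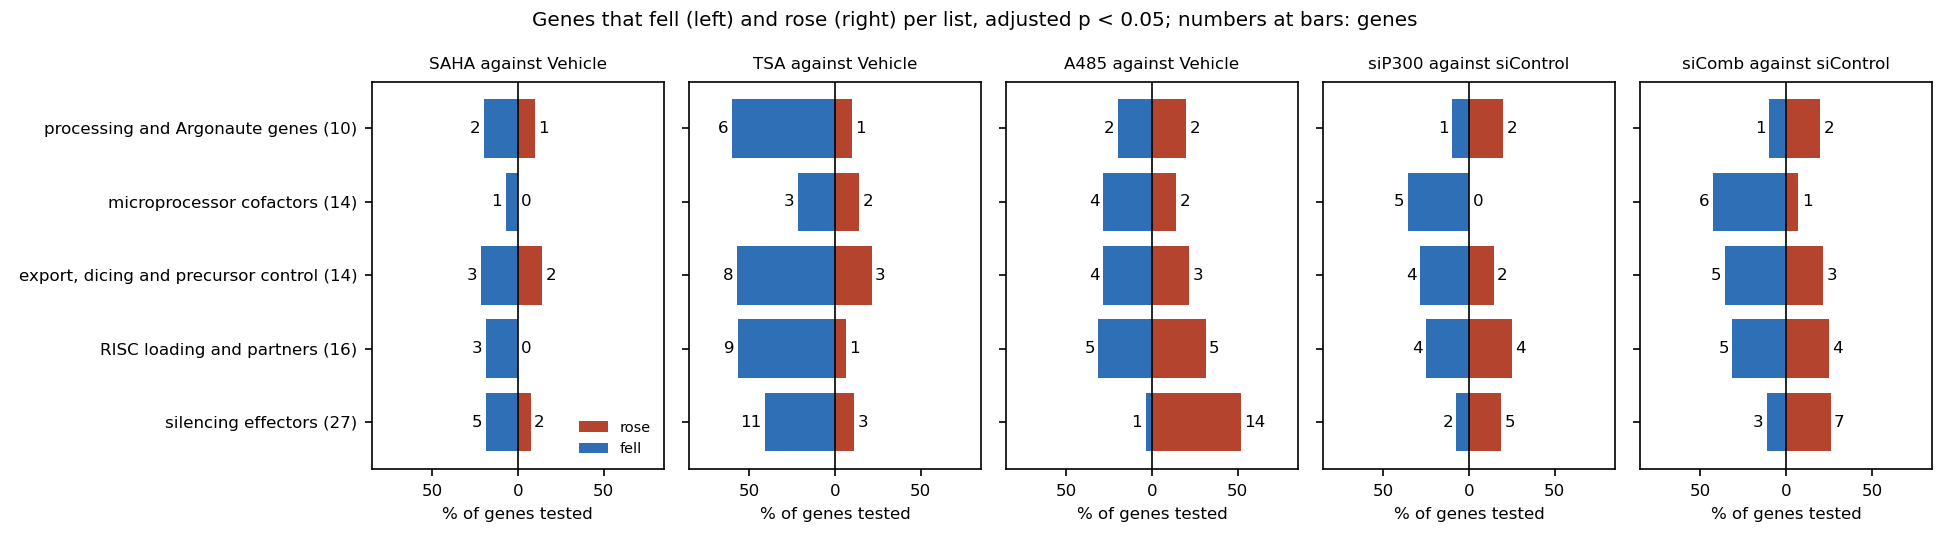
Percent of genes of each list that fell (left, blue) or rose (right, red) at an adjusted p of 0.05 in the 5 comparisons with widespread change, with the number of genes at each bar; in brackets stands the number tested. The effectors of silencing lie mostly right of 0 in A485 (14 against 1) and mostly left in TSA (3 against 11), and the 10 genes lie mostly left in TSA (1 against 6).

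Transcripts that host microRNAs were scarce. Of 9 such rows, listed apart from the 74 genes, 5 could be tested, and 3 of these rose in siP300 and the same 3 in siComb. Over all genes, 19.7% were higher in siP300 and 19.6% in siComb. Of the 3, Mir142hg passed the filter only through siP300 and siComb, so its rise was favoured in advance and is given as a description. Mirg, the host in the imprinted Dlk1-Dio3 cluster, was at 1.43, 0.199 and 0.573 CPM in siControl, at 13.4, 1.81 and 5.87 CPM in siP300 (adjusted p = 0.00633) and at 9.59, 6.49 and 3.65 CPM in siComb (adjusted p = 0.00724). Mir142hg, host of a microRNA of blood cells, was at 0 to 0.612 CPM in siControl (0 to 6 counts per library), at 2.20 to 5.75 CPM in siP300 and at 4.08 to 10.8 CPM in siComb. Mir17hg, host of the miR-17-92 cluster, rose from 1.88 ± 0.278 CPM in siControl to 4.29 ± 1.48 in siP300 (adjusted p = 0.0330) and 5.69 ± 1.66 in siComb (adjusted p = 0.00693), and fell from 5.47 ± 0.818 CPM in Vehicle to 1.41 ± 0.871 in SAHA (adjusted p = 0.0366). For all 3 hosts, each siP300 and siComb library lies above every siControl library. Of 1178 microRNA gene rows, 1054 were at 0 in all 27 libraries.

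Other measures moved with the treated groups. Mitochondrially encoded genes took 4.94 to 6.99% of counts in siP300 and 4.86 to 5.41% in siComb, against 1.94 to 2.45% in siControl. Their share was also above Vehicle (0.997 to 1.20%) without overlap in SAHA (1.61 to 2.16%), A485 (2.36 to 2.62%) and TSA (2.51 to 3.57%). The summed level of 8 blood and immune markers was 143 to 246 CPM in siP300 and 146 to 175 CPM in siComb, against 34.4 to 45.3 CPM in siControl, and it was 72.0 to 150 CPM in TSA against 15.5 to 36.2 CPM in Vehicle. Of the 5 genes of this list tested in the siRNA family, the globin Hba-a1 and Cd74, a chaperone of antigen presentation, rose in siP300 and siComb. Over all genes, 19.7 and 19.6% were higher there. Hba-a1 was at 0.861 CPM in siControl, 67.6 in siP300 and 45.8 in siComb, and Cd74 at 8.91, 75.7 and 96.3 CPM. In TSA both rose too, Hba-a1 from 0.139 to 28.6 CPM and Cd74 from 7.96 to 61.4 CPM. Of 4 genes of the list tested there, 3 rose and 1 fell, where 31.6% of all genes were higher and 26.6% lower. In SAHA 2 rose and 1 fell, where 20.2% were higher and 14% lower. Laptm5 fell in siComb and in TSA, while Hbb-bs was at 0 in all 27 libraries, Tyrobp in 24 and Ptprc, the common leukocyte antigen, in 19. The summed level of 10 cumulus and granulosa markers was 14.8 to 26.5 CPM in siP300 and 12.03 to 25.7 CPM in siComb against 3.73 to 4.49 CPM in siControl. Of 4 tested, 2 rose in siP300 and 3 in siComb, where 19.7 and 19.6% of all genes rose. Cyp11a1 was at 0.696 CPM in siControl, 8.29 in siP300 and 7.13 in siComb, and Tnfaip6 at 0.664, 7.47 and 4.84 CPM. The median log2 difference of the 4 tested was 2.73 in siP300 and 2.59 in siComb. The other markers of this list fell short of the filter. Markers as low in siControl as Cyp11a1, Tnfaip6 and Hba-a1 can pass it through the groups where they are high. These counts and medians are therefore a description and no support for a rise of the lists. Amh was at 0 in 25 libraries and Fshr in 15. A list of 8 oviduct and stromal markers went the other way under the inhibitors. Its summed level was 12.7 to 20.3 CPM in Vehicle, 3.13 to 6.43 in SAHA, 6.68 to 7.92 in TSA and 0.197 to 1.87 in A485. In siP300 (4.66 to 11.6 CPM) and siComb (7.60 to 13.2 CPM) it overlapped siControl (8.47 to 15.0 CPM). The part of these measures in the results on the 10 genes was not tested.

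For each gene, the genes with the most similar means over the 9 groups were found among 8248 genes with at least 10 CPM, by Pearson's r of mean log2 CPM, as a description of 9 points that share libraries and scaling. For Ago2 these were Whamm (r = 0.992) and Mdn1 (0.990), for Ago3 Pikfyve (0.983) and Hesx1 (0.979), and for Ago4 Zfp995 (0.985) and Zfp280d (0.983). For Tnrc6a they were Dennd1b (0.996) and Pafah1b1 (0.992), for Dicer1 Traf3ip2 (0.991) and Syap1 (0.985), and for Xpo5 Ccnq (0.988) and Gna13 (0.982). Those of Tarbp2 were Chmp1a (0.978) and Lman1 (0.972), of Drosha Mrpl54 (0.961) and Ssbp1 (0.956), of Dgcr8 Ccl25 (0.964) and Prcp (0.945), and of Ago1 Klhl9 (0.951) and Smim4 (0.950). Within the 10 genes themselves, the group means of Ago4 lay close to those of Dicer1 (r = 0.957) and Tnrc6a (r = 0.956), and those of Drosha close to Xpo5 (r = 0.910). Ago3 was least like Xpo5 (r = -0.755) and Drosha (r = -0.709) over the same 9 means.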

How the data were processed

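Polyadenylated RNA of embryo pools was amplified with a low-input kit, per the labels' protocols. The authors deposited a table of counts over all libraries, whole numbers that had not been normalized, and also counts for each library. The table over all libraries was used. The submitters' processing notes name STAR 2.7.11a, featureCounts, Subread 2.0.6, MultiQC and Scanpy 1.8.2 and the builds mm10 and GRCh38, without roles. Which annotation release was used, and whether strand and read pairs were considered, is not given in the sources used here. Groups were taken from the sample titles. The 2 MERVL rows were left out of library sizes and tests.

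Counts were tested with edgeR 4.0.16 (glmQLFit and glmQLFTest, TMM, filterByExpr with a minimum count of 10, R 4.3.3), 1 fit for the 12 inhibitor libraries and 1 for the 15 siRNA libraries, with Benjamini-Hochberg adjustment over all genes tested and a threshold of 0.05. P values rest on the spread between pools within groups, estimated jointly over all groups of a family and not from the compared groups alone. Argonaute shares were tested by exact permutation of the libraries (two-sided). Levels per kilobase used merged exons of GENCODE vM21 on GRCm38, and 53292 gene symbols of the table matched the reference list of names. Promoters and microRNAs are RefSeq's. The test was checked on counts simulated from its own model with few changed genes. That check cannot judge the scaling where many genes change.

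Alternatives were DESeq2 1.42.0 and its size factors, library size alone, no filter, fits restricted to a single comparison, a joint fit of 27 libraries, a replicate block and leaving out each library. Halved counts and leaving out 4 libraries high in MERVL were added after seeing the data. Other pathway genes were named by rule: up to 3 rising and 3 falling genes per comparison with a control, by fold change, with an adjusted p under 0.05 and a mean of at least 10 CPM, and for each of the 10 genes the 2 most similar genes. Cnot7, Cnot9, Lsm14a, Eif4e2 and the host transcripts were named outside it, after their values were seen. The members and lists were chosen with earlier results of these data known.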

Additional observations from a re-analysis of the deposited data

How the results depend on the processing

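Of 1750 log2 differences of the 10 genes recomputed under other settings, 54 fell short of the threshold that they had passed, 26 passed where they had not, and no called difference changed sign. Of those 80 changes, 48 came from leaving out a library. The number of the 10 genes called moved by over 1.5 times in a few settings. For SAHA against Vehicle it was 5 in a fit of just those groups (3 in the report) and 1 to 2 when a library was left out. For siComb against siControl it was 1 to 4 when a library was left out (3 in the report). For siP300 against siKat6a it was 2 in a fit of just those groups, with library size alone, and without the 4 libraries high in MERVL, and 2 to 4 when a library was left out (4 in the report). For siP300 against siKat6b it was 1 in a fit of just those groups (2 in the report). The cause was not tested. The replicate numbers did not pair the samples (correlation of deviations -0.0877 to 0.131, with no comparison over 0.1 in every pair). With a replicate block, the A485 call of Tnrc6a was lost (0.65 on the log2 scale, adjusted p = 0.0541), and no other call on the 10 genes changed. Without a filter, the calls of Tnrc6a in SAHA and A485, Dgcr8 in siP300, Xpo5 between A485 and SAHA and Tarbp2 between siP300 and siKat6a were lost. Gained without a filter were Drosha in TSA and between A485 and TSA, and Ago2 in siP300 and siComb. Over all genes, siKat6b gave 1 to 755 calls and siComb against siP300 gave 0 to 733, depending on the setting. Library size alone moved the median log2 difference of all genes from 0.11 to 0.40 for siP300 against siKat6a (called genes that are higher 55.4% to 75.1%), from 0.05 to 0.27 for siP300 against siKat6b (53.4% to 71.0%), from 0.02 to 0.13 for siKat6b and from -0.27 to -0.14 for A485 against TSA, and DESeq2's size factors moved it from 0.08 to 0.22 for TSA and from -0.27 to -0.39 for A485 against TSA. With unscaled CPM, 15 of 90 group levels moved by more than 1 SD. Depth limits Ago1 and Ago4 most, with as few as 14 counts in a library.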
